A study of Mus musculus with 8 samples.

Results

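The Cyp2d genes of the mouse encode a subfamily of the cytochrome P450 enzymes and lie side by side in 1 gene cluster. The 9 genes described here are the rows of the deposited table with the symbols Cyp2d9, Cyp2d10, Cyp2d11, Cyp2d12, Cyp2d13, Cyp2d22, Cyp2d26, Cyp2d34 and Cyp2d40, out of 22013 genes in that table. They were read in poly(A)-selected RNA of mouse liver in 8 libraries, 4 labelled resmetirom and 4 labelled control. The series describes a diet-induced steatohepatitis, an inflamed fatty liver, brought about by 12 weeks of a diet high in fructose, palmitate and cholesterol. The resmetirom group received resmetirom, a liver-directed agonist of thyroid hormone receptor beta, intraperitoneally at 5 mg/kg/day, beginning after 4 weeks of feeding and lasting 8 weeks. The vehicle was 0.5% carboxymethyl cellulose-sodium with 0.4% Tween-80. Which diet or injection the control mice received is not in their labels, and no label gives strain, sex, age or whether each library came from its own animal, so a p-value here reflects library-to-library spread, which may be technical.

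Cytochrome P450 enzymes are heme proteins of the endoplasmic reticulum that insert an oxygen atom into their substrates with electrons from P450 oxidoreductase and, for some of them, cytochrome b5. The human genome has a single active CYP2D gene, CYP2D6, whose enzyme clears many antidepressants, opioids and beta blockers, whereas the mouse cluster holds several active genes and many pseudogenes. Cyp2d9 is known as a steroid hydroxylase that is more abundant in male than in female mouse liver, under the control of growth hormone. The transcription factor GABP is known to bind a short element of the Cyp2d9 promoter whose methylation differs between the sexes, and human CYP2D6 is known to be activated by HNF4A and restrained by the small heterodimer partner.

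Of the 9 members, 1 changed in the resmetirom libraries: Cyp2d9 fell 7.27-fold, while the 5 other members with enough counts for a test, Cyp2d10, Cyp2d26, Cyp2d22, Cyp2d40 and Cyp2d13, did not pass it. The 3 remaining members, Cyp2d11, Cyp2d12 and Cyp2d34, had few or no counts in either group. Cyp2d9 made up 9.07% of the Cyp2d counts in resmetirom libraries and 40.2% in control libraries. The summed counts of the whole family fell with it.

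The promoters of the members show how alike the genes are around their start and where Cyp2d9 differs. RefSeq promoter sequences (GRCm38.p6, 250 bases before to 50 after the annotated start) were at hand for 5 of the 9 members. The window shown for each is the 100 bases before the TATA letters together with those letters. Capitals mark TTTATAAG, the TATA letters at the end of every window, a direct repeat of the half-site AGGNCA with a single A between its copies (the spacing that HNF4A binds), and TTCCGGGC, the GABP element described for Cyp2d9. The windows lie on chromosome 15, with Cyp2d9 at chr15:82452249-82452356 on the plus strand. On the minus strand lie Cyp2d10 at chr15:82407218-82407325, Cyp2d11 at chr15:82394058-82394165, Cyp2d40 at chr15:82764206-82764313 and Cyp2d26 at chr15:82794269-82794376. Starts are those of the promoter table, and transcripts that begin further upstream are also annotated for Cyp2d9, Cyp2d10, Cyp2d26 and Cyp2d40.
Cyp2d9: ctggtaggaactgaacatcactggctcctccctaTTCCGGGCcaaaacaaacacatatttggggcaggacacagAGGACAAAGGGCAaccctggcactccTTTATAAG
Cyp2d10: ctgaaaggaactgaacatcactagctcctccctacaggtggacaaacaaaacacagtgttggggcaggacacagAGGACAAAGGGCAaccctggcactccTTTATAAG
Cyp2d11: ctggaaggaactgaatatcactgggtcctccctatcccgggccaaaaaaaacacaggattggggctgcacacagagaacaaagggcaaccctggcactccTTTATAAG
Cyp2d40: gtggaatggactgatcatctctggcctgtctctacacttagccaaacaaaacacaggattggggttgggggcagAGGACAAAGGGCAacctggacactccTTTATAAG
Cyp2d26: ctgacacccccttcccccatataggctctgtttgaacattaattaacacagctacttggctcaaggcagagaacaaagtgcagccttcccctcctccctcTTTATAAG

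The Cyp2d9 window was identical to that of Cyp2d11 at 89.8% of aligned bases and to that of Cyp2d10 at 87.0%, against 74.1% for Cyp2d40 and 72.0% for Cyp2d26. All 5 member promoters held the TATA letters, which 1.13% of 32851 mouse promoters of the same length held on either strand. The direct repeat stood in 3 of the 5, those of Cyp2d9, Cyp2d10 and Cyp2d40, and in 0.0944% of all promoters. The letters TTCCGGGC stood in the Cyp2d9 promoter alone among the 5, starting 94 bases upstream of the annotated start, and in 1.40% of all promoters. Counted from 1 at the 5′ end of those 8 letters in Cyp2d9, the aligned letters differed by T2C in Cyp2d11, by T1C, T2A, C3G, C4G, G5T and C8A in Cyp2d10, by C4T, G6T, G7T and C8T in Cyp2d26, and by T1C, T2A, C4T, G5T and G6A in Cyp2d40. The ETS core CCGGAA, read on the antisense strand, overlaps the GABP element and was found only in Cyp2d9 of the 5, against 14.9% of all promoters. The STAT motif TTCNNNGAA (8.30% of all promoters) and the direct repeat of AGGTCA with any 4 bases between its copies, the spacing that thyroid hormone receptors bind (0.0152%), had no match in the 5 windows of 300 bases on either strand. The search for AGGTCA allowed no free base in the half-site, unlike that for AGGNCA, and matched only 5 of 32851 promoters. Its lack of a match in the 5 members therefore says little about sites for thyroid hormone receptors. The other strings were fixed letters too, and TTCCGGGC was described for Cyp2d9 itself. The 5 promoters are also related copies, so setting their matches beside the shares of all promoters is no test of enrichment. A match of letters describes the sequence and does not show that a factor bound there.

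Cyp2d9 transcripts stood at 91.4, 143, 102 and 106 CPM in resmetirom libraries 1 to 4, against 733, 823, 808 and 853 CPM in control libraries 1 to 4. CPM are counts scaled to a common library total, here scaled between libraries by trimmed-mean (TMM) factors. The highest resmetirom library lay far below the lowest control library, and no library overlapped with the other group. In a whole tissue, fewer cells of a type and less RNA per cell cannot be told apart. The means were 111 ± 22.6 CPM in resmetirom libraries and 804 ± 50.9 CPM in control libraries (SD, n = 4 each), from 1532 to 2209 reads per resmetirom library and 15761 to 17790 per control library. The log2 fold change, resmetirom minus control, was −2.86 (SE 0.14, 95% interval −3.16 to −2.56), with an adjusted p of 3.05e-07 by edgeR's quasi-likelihood test with Benjamini-Hochberg adjustment over the 12207 tested genes. In that test 560 genes (4.59%) passed the threshold of 0.05, with 243 (1.99%) lower and 317 (2.6%) higher in resmetirom libraries. Among the 7002 genes with a mean of at least 10 CPM, Cyp2d9 had the ninth largest fall, and among the 68 tested P450 genes its fall ranked 3 from the largest.

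**Figure D1:**
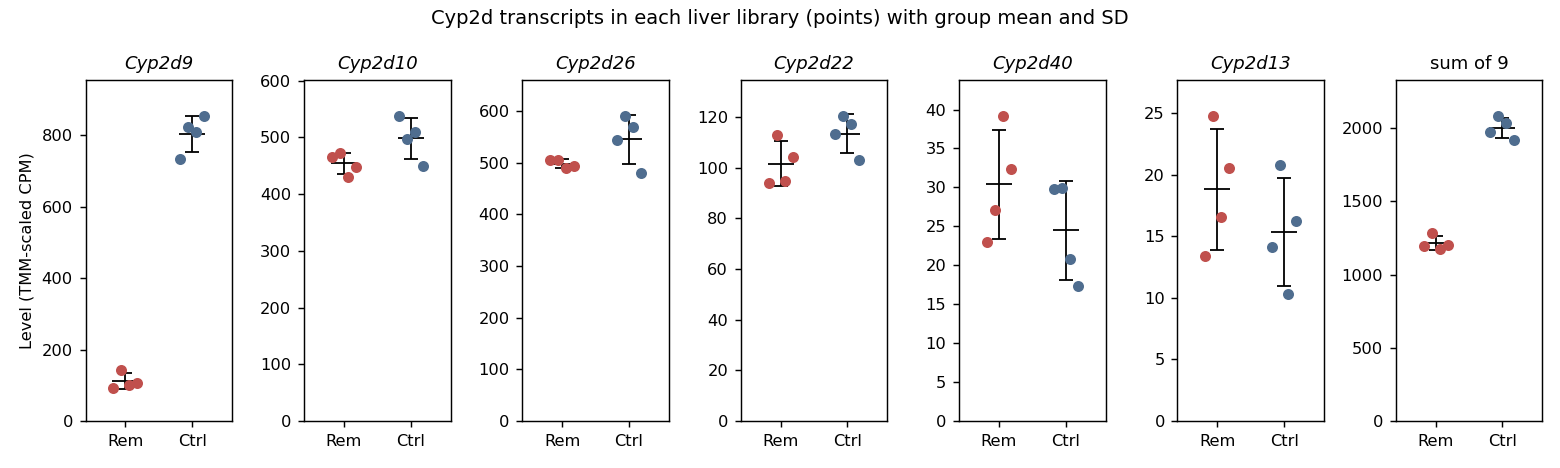
Level of each tested Cyp2d member and of the sum of all 9 (TMM-scaled CPM, vertical axis from 0, its own scale in each panel) in the 4 resmetirom (Rem, left) and 4 control (Ctrl, right) libraries; points are libraries 1 to 4 from left to right, and bars are the mean and SD. Cyp2d9 stands at 91.4 to 143 CPM in resmetirom libraries and 733 to 853 CPM in control libraries, while the groups overlap for the 5 other members.

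Cyp2d10, one of the most abundant Cyp2d transcripts of the liver, stood at 466, 472, 431 and 448 CPM in resmetirom libraries 1 to 4 and at 537, 497, 509 and 450 CPM in control libraries 1 to 4. The groups overlapped through control library 4, which lay beside the resmetirom libraries. The means were 454 ± 18.8 CPM in resmetirom libraries and 498 ± 36.5 CPM in control libraries (SD, n = 4 each), and the log2 fold change of −0.13 (SE 0.083, 95% interval −0.32 to 0.048) did not pass the edgeR test (adjusted p 0.465).

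Cyp2d26, at the far end of the cluster from Cyp2d22, stood at 506, 506, 489 and 493 CPM in resmetirom libraries 1 to 4 and at 544, 590, 569 and 480 CPM in control libraries 1 to 4. Again 3 control libraries lay above every resmetirom library, and control library 4 lay below all of them. Its log2 fold change was −0.13 (SE 0.085, 95% interval −0.32 to 0.055) with an adjusted p of 0.496 in the edgeR fit.

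Cyp2d22, the member most distant in sequence from Cyp2d9 among the annotated transcripts, stood at 94.0, 113, 94.9 and 104 CPM in resmetirom libraries 1 to 4 and at 113, 120, 117 and 103 CPM in control libraries 1 to 4. Its groups overlapped, with a log2 fold change of −0.16 (SE 0.092, 95% interval −0.36 to 0.041, adjusted p 0.418 in the edgeR fit). The intervals of Cyp2d10, Cyp2d26 and Cyp2d22 all leave out a fall as large as that of Cyp2d9, and their lowest bound was −0.36.

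Cyp2d40 stood at 22.9, 27.1, 39.1 and 32.4 CPM in resmetirom libraries 1 to 4, against 29.7, 29.9, 20.8 and 17.4 CPM in control libraries 1 to 4. The groups interleaved, and the log2 fold change of 0.31 (SE 0.21, 95% interval −0.15 to 0.77) did not pass the edgeR test (adjusted p 0.514). Cyp2d13, which RefSeq annotates as a transcribed pseudogene, stood at 13.4, 24.7, 16.6 and 20.5 CPM in resmetirom libraries 1 to 4, against 14.1, 20.8, 10.3 and 16.3 CPM in control libraries 1 to 4, with a log2 fold change of 0.29 (SE 0.23, 95% interval −0.22 to 0.80, adjusted p 0.600 in the edgeR fit). Both point estimates turned below 0 when libraries were scaled by their size alone or read as TPM, without a call in either direction.

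The rarest members gave no basis for a comparison. Cyp2d11, whose transcript is 93.4% identical to that of Cyp2d9, had 0, 1, 1 and 3 reads in resmetirom libraries 1 to 4 and 1, 0, 7 and 2 reads in control libraries 1 to 4. The ratio of its summed counts per total was 0.541 (exact 95% interval 0.145 to 1.74, counting error only). Cyp2d12 had 1, 1, 0 and 0 reads in resmetirom libraries and 3, 0, 0 and 1 in control libraries, a ratio of 0.541 (exact 95% interval 0.0489 to 3.77). Cyp2d34 had no read in any library, which allows up to 0.0428 CPM over the resmetirom group and 0.0396 CPM over the control group (3 counts of each group's total).

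In all, 1 of the 6 tested members was lower and 0 were higher in the edgeR fit, and DESeq2 and limma-voom gave the same 1 and 0. Of all tested genes, 1.99% were lower and 2.6% higher in the edgeR fit. At an unadjusted p under 0.05 the counts were also 1 lower and 0 higher. The median log2 fold change of the 6 tested members was −0.13, against −0.0045 over all tested genes. Of all tested genes, 11.8% had CPM values that did not overlap between the groups, and of the 6 members only Cyp2d9 did not overlap.

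Levels of different members can be set side by side on the authors' TPM scale, which corrects for transcript length. In resmetirom libraries the order on the TPM scale was Cyp2d10 at 601, Cyp2d26 at 391, Cyp2d9 at 74.7 to 112, Cyp2d22 at 49.0, Cyp2d40 at 33.8 and Cyp2d13 at 7.95 TPM. In control libraries it was Cyp2d9 at 926, Cyp2d10 at 901, Cyp2d26 at 599, Cyp2d22 at 77.0, Cyp2d40 at 38.9 and Cyp2d13 at 9.29 TPM. On this scale Cyp2d9 thus stood below Cyp2d26 in resmetirom libraries and level with Cyp2d10 in control libraries, and the other 5 kept their order. The ratio of Cyp2d9 to Cyp2d10 was 0.159 ± 0.0243 in resmetirom libraries and 1.03 ± 0.137 in control libraries (SD, n = 4 each). Within the control libraries, the ratio of Cyp2d9 to Cyp2d10 ran from 0.890 to 1.18, so on this scale these neighbours did not differ beyond their spread. That likeness rests on the length used for each gene. Counts per TPM were on average 1.58 times as high for Cyp2d9 as for Cyp2d10 in control libraries. The annotated exons cover 2658 bases for Cyp2d9 and 1648 for Cyp2d10, against transcripts of 1712 and 1648 bases. Without a length correction, control libraries averaged 804 CPM for Cyp2d9 and 498 CPM for Cyp2d10.

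Cyp2d9 took 7.66, 11.1, 8.70 and 8.79% of the Cyp2d counts in resmetirom libraries 1 to 4 and 37.2, 39.5, 39.7 and 44.5% in control libraries 1 to 4. The groups were far apart, and the difference of the means was −31.2 percentage points (2-sided exact permutation test, p = 0.0286, the smallest that 4 against 4 libraries can give). This share is a ratio within a library and is not touched by the scaling between libraries. On the TPM scale the share was 8.09% ± 1.08 in resmetirom libraries and 36.2% ± 3.04 in control libraries (SD, n = 4 each). Cyp2d10 filled 50.9% of the summed Cyp2d TPM in resmetirom libraries and 35.3% in control libraries, and Cyp2d26 filled 33.2% in resmetirom libraries and 23.5% in control libraries. The shares of one pool add up to a fixed total, so these larger shares accompany the smaller one of Cyp2d9 and are not further changes.

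**Figure D2:**
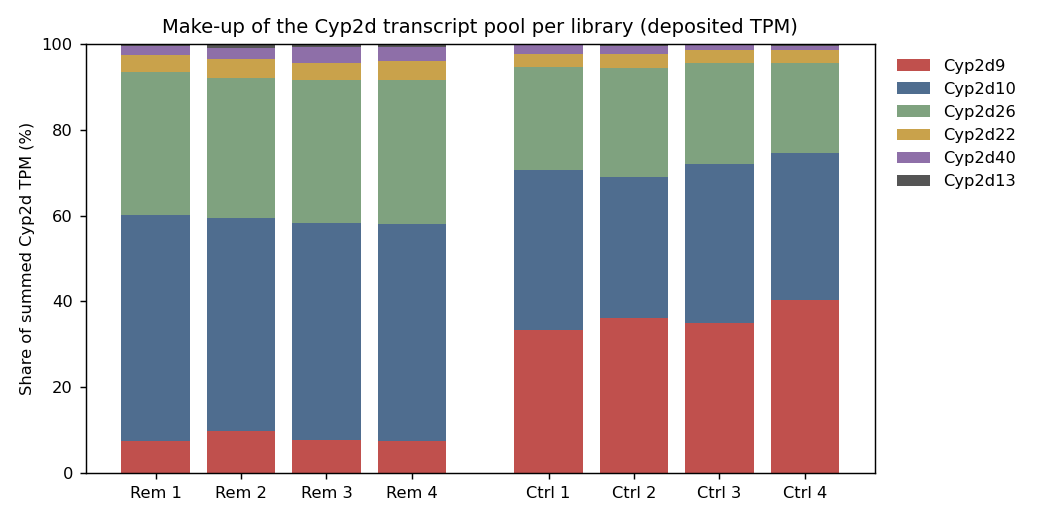
Share of each Cyp2d member in the summed Cyp2d TPM (%, vertical axis, bars add to 100) in resmetirom libraries 1 to 4 (Rem, left) and control libraries 1 to 4 (Ctrl, right). Cyp2d9, at the bottom, fills 7.43 to 9.70% of the pool in resmetirom libraries and 33.3 to 40.4% in control libraries, and Cyp2d10 and Cyp2d26 fill most of the rest.

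The family as a whole was read as 1 summed row, because a sum does not depend on how reads that match several members were divided among them. The sum stood at 1194, 1286, 1172 and 1205 CPM in resmetirom libraries 1 to 4 and at 1972, 2081, 2034 and 1919 CPM in control libraries 1 to 4. No library overlapped with the other group. The means were 1214 ± 49.9 CPM in resmetirom libraries and 2002 ± 70.7 CPM in control libraries (SD, n = 4 each), and the log2 fold change was −0.72 (SE 0.081, 95% interval −0.90 to −0.55, adjusted p 0.000338 in the edgeR fit). The family took 0.109% ± 0.0132 of all counts in resmetirom libraries and 0.223% ± 0.00776 in control libraries (SD, n = 4 each), a difference of −0.114 percentage points (2-sided exact permutation test, p = 0.0286). This share also depends on how much of a library other genes fill. Of the counts outside the major urinary protein genes, the family took 0.133% ± 0.00631 in resmetirom libraries and 0.236% ± 0.00556 in control libraries (SD, n = 4 each). Without Cyp2d9, the sum of the 8 other members was 1104 ± 29.9 CPM in resmetirom libraries and 1197 ± 88.4 CPM in control libraries (SD, n = 4 each), with a log2 fold change of −0.12 (SE 0.085, 95% interval −0.30 to 0.067, adjusted p 0.546 in the edgeR fit). That sum was chosen after the data had been seen.

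How far the other members differed rested on the scaling between libraries. The major urinary protein (Mup) genes took 7.54 to 25.1% of all counts in resmetirom libraries, against 4.32 to 7.05% in control libraries, so all other genes together filled a smaller part of the resmetirom libraries. With library sizes alone as the scale, the median gene of the table moved to −0.31 on the log2 scale, and on log2(TPM + 1) to −0.41. With library sizes that left out the Mup genes, the median gene still lay at −0.12, and 65.5% of calls were lower, so the Mup share accompanied only part of the shift. On these scales Cyp2d10 came to −0.44 and −0.60, Cyp2d26 to −0.43 and −0.63, and Cyp2d22 to −0.47 and −0.66 (library sizes, then TPM), and all 3 passed the threshold with adjusted p between 0.00824 and 0.0265 (edgeR for counts, limma for TPM). With these scales 16.1% and 38% of all tested genes passed as lower, beside 4 of 6 members on each scale. The difference in these shares was not tested. Relative to the median gene the members moved little between scales: Cyp2d10 lay at −0.12, Cyp2d26 at −0.12 and Cyp2d22 at −0.16 with library sizes, and at −0.20, −0.22 and −0.25 on the TPM scale. Cyp2d9 lay at −2.87 relative to the median gene with library sizes and at −2.88 with TPM.

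**Figure D3:**
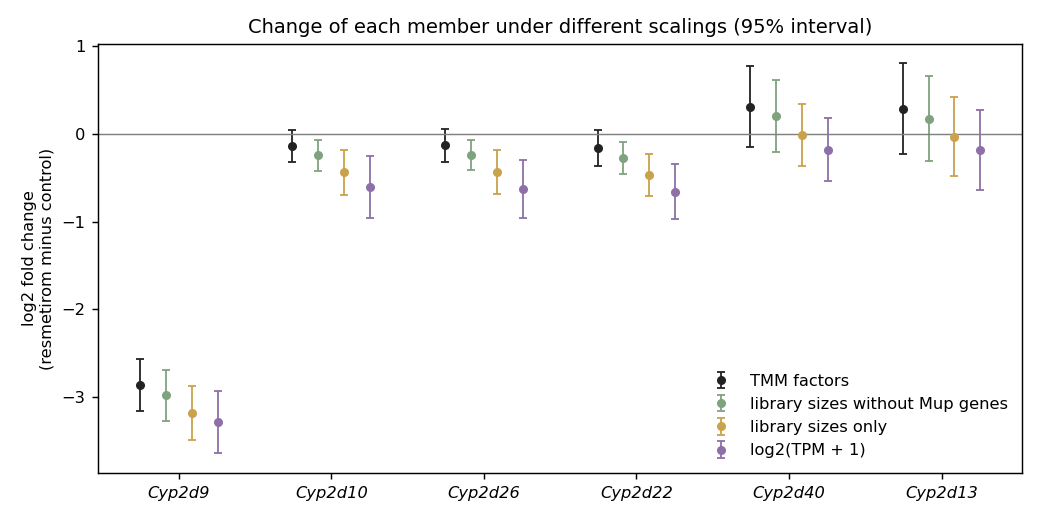
Log2 fold change (resmetirom minus control, vertical axis) of each tested member with its 95% interval under 4 ways of scaling the libraries: TMM factors, library sizes without the Mup genes, library sizes alone, and log2(TPM + 1). Cyp2d9 lies between −2.86 and −3.29 under all 4, whereas Cyp2d10, Cyp2d26 and Cyp2d22 shift down together and Cyp2d40 and Cyp2d13 turn from 0.31 and 0.29 with TMM factors to −0.18 and −0.19 with TPM.

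The authors' deposited table gives its own comparison, whose log2 fold change is that of the group means of TPM. The submitters' notes name DESeq2 and edgeR without a role, so what the p-values were computed on is not known here. In that comparison Cyp2d9 had a log2 fold change of −3.28 and an adjusted p of 8.08e-122 and ranked first of all genes by p. The authors' deposited table also gives adjusted p under 0.05 to Cyp2d22 (−0.65, 2.22e-05), Cyp2d26 (−0.62, 0.000127) and Cyp2d10 (−0.58, 0.000157). Across the authors' deposited table, 33.6% of the 16019 genes with counts passed that threshold, 5192 of them lower in resmetirom libraries and 190 higher.

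In position, the 9 members span 424 kb of chromosome 15 (GRCm38), from Cyp2d22 at chr15:82370527-82380260 to Cyp2d26 at chr15:82790101-82794294, both on the minus strand. Between them lie, in order, Cyp2d11 at 82389154-82394022, Cyp2d10 at 82402846-82407195, Cyp2d9 at 82433437-82456845 on the plus strand, Cyp2d12 at 82555072-82560403, Cyp2d34 at 82615965-82620946, Cyp2d13 at 82636750-82642045 and Cyp2d40 at 82759833-82764183. The annotation has 19 further pseudogenes in the cluster, and 0 of them are rows of the table. Cyp2d10 and Cyp2d9, whose TPM values were alike in control libraries, are adjacent in that list and are read from opposite strands.

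No tested gene in the flanks of the cluster was called lower along with Cyp2d9. Within 500 kb on either side, 30 genes were in the table and 18 were tested, of which 2 were higher and 0 lower in the edgeR fit, and their median was 0.14 on the log2 scale. Srebf2, which encodes the main activator of cholesterol synthesis genes, rose to 43.4 ± 8.64 CPM in resmetirom libraries, against 14.6 ± 2.12 CPM in control libraries (SD, n = 4 each; log2 fold change 1.57, adjusted p 0.000109 in the edgeR fit). Ndufa6, a subunit of respiratory complex I and the tested gene nearest to Cyp2d22, rose to 113 ± 10.1 CPM in resmetirom libraries, against 85.6 ± 7.65 CPM in control libraries (SD, n = 4 each; log2 fold change 0.40, adjusted p 0.0404 in the edgeR fit). Of the 32 neighbours listed by name, 28 were in the table and 19 were tested, with 2 higher and 0 lower. Leaving out any of 5 libraries (control 1, 2 or 4, resmetirom 1 or 4) left 1 of these neighbours higher, and leaving out resmetirom library 3 gave 1 lower. At an unadjusted p under 0.05, 1 of the 19 was lower, DESeq2 called 1 lower and limma-voom 0. On log2(TPM + 1), where the median gene lay at −0.41, the median of the 19 was −0.34, with 1 higher and 6 lower. Of all tested genes, 38% were lower on that scale.

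**Figure D4:**
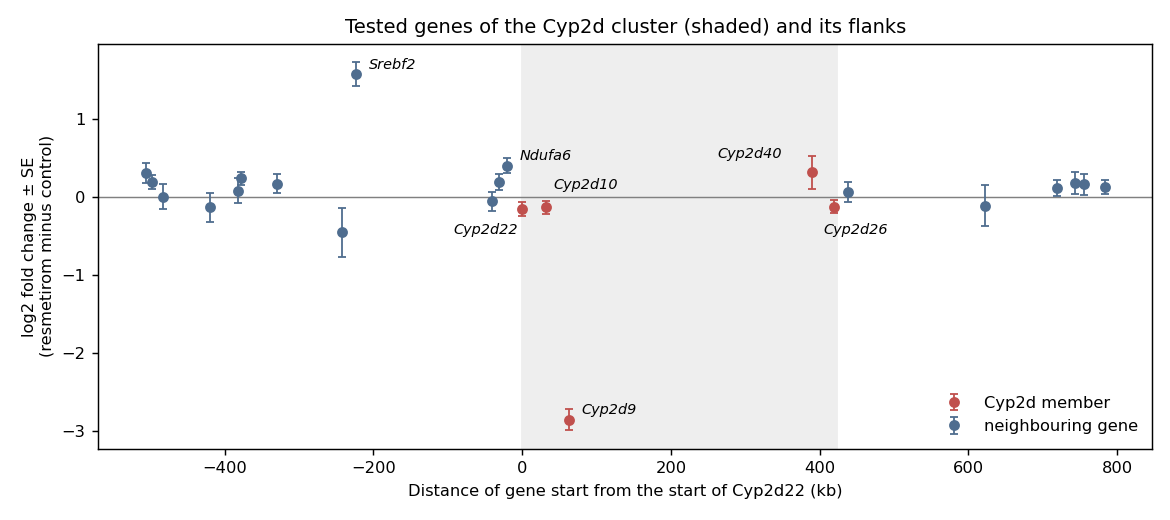
Log2 fold change (resmetirom minus control, vertical axis, bars are the SE) of tested genes against the distance of each gene's start from that of Cyp2d22 (kb, horizontal axis); the shaded band is the Cyp2d cluster of 424 kb. Cyp2d9 lies at −2.86 while Cyp2d22, Cyp2d10 and Cyp2d26 lie between −0.16 and −0.13 in the same band; Cyp2d13, which the gene annotation used here does not hold, is not drawn.

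Members so alike in sequence share reads, and no source used here says how the authors' counting treated such reads. The share of reads that fit several members depends on read length, which those sources do not give either. Of all stretches of 50 bases, 29.0% of those in the Cyp2d9 transcript also occur in another annotated transcript, against 40.5% for Cyp2d10, 37.2% for Cyp2d11, 24.1% for Cyp2d40, 17.9% for Cyp2d12, 13.7% for Cyp2d34, 10.5% for Cyp2d26 and 6.14% for Cyp2d22. Of all stretches of 100 bases in the Cyp2d9 transcript, 9.86% also occur in another transcript of the annotation, against 14.8% for Cyp2d10, 12.2% for Cyp2d11, 3.79% for Cyp2d12, 0.375% for Cyp2d26, 0.225% for Cyp2d22, 0.128% for Cyp2d34 and 0% for Cyp2d40. For stretches of 150 bases the share was 1.54% for Cyp2d9 and 6.40% for Cyp2d10. Counts of Cyp2d11 and Cyp2d12 of a few reads are therefore uncertain, since Cyp2d10 shares most with Cyp2d11, and Cyp2d12 shares most with Cyp2d9. The annotated Cyp2d9 and Cyp2d10 transcripts are 91.6% identical, and those of Cyp2d9 and Cyp2d26 are 80.7% identical.

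Other cytochrome P450 genes changed in both directions. Of the 62 other tested Cyp genes, 16 were higher and 8 lower (38.7% called, edgeR), with a median log2 fold change of 0.019. Of the 28 other members of the Cyp2 family, 9 were higher and 4 lower, with a median of 0.062. Beside them, 1 of the 6 tested Cyp2d members was called; the difference in these shares was not tested. Only Cyp4a12a and Cyp4a12b, fatty acid hydroxylases of male mouse liver, had larger falls than Cyp2d9 among tested P450 genes.

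**Figure D5:**
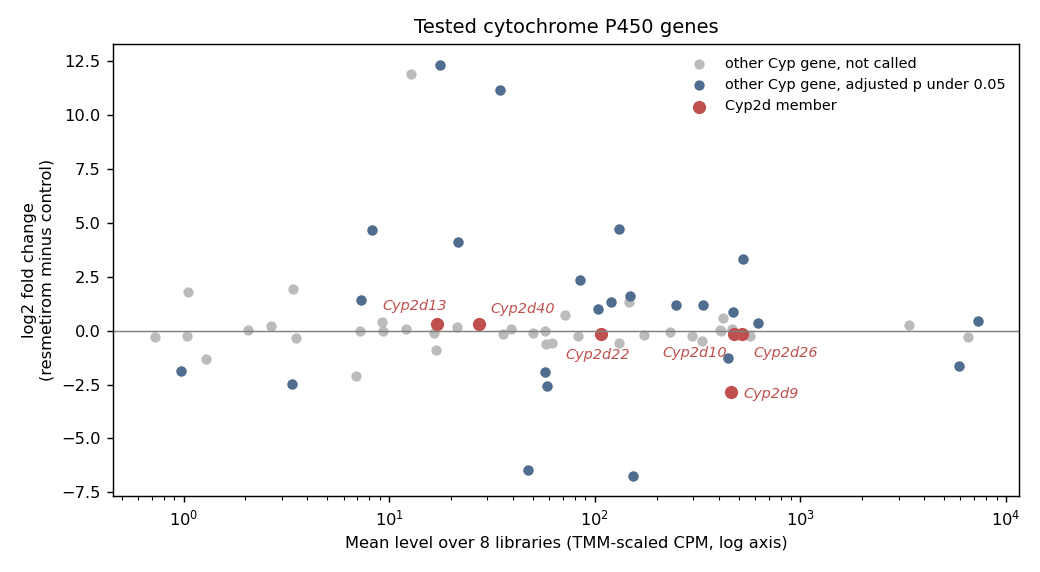
Log2 fold change (resmetirom minus control, vertical axis) of all 68 tested cytochrome P450 genes against their mean level over the 8 libraries (TMM-scaled CPM, log axis); red points are Cyp2d members, blue points other P450 genes with an edgeR adjusted p under 0.05, grey points the rest. Cyp2d9 lies at −2.86 and the 5 other members between −0.16 and 0.31; fitted values above 10 belong to genes with few or no control counts and depend on the prior count.

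Transcripts for the proteins that serve the P450 enzymes mostly did not pass the threshold. Of 15 genes for electron partners and heme synthesis and breakdown, 1 was higher and 0 were lower in the edgeR fit, and the median was 0.032 on the log2 scale. The riser was Cyb5b, the outer mitochondrial membrane form of cytochrome b5, at 294 ± 34.8 CPM in resmetirom libraries and 186 ± 12.5 CPM in control libraries (SD, n = 4 each; log2 fold change 0.66, adjusted p 0.00229 in the edgeR fit). Por, the oxidoreductase that feeds electrons to the Cyp2d enzymes, averaged 367 CPM in resmetirom libraries and 471 CPM in control libraries (log2 fold change −0.36, SE 0.26, adjusted p 0.552 in the edgeR fit). At an unadjusted p under 0.05, 2 of the 15 were higher and 1 was lower, and DESeq2 called 1 lower and limma-voom 0. On log2(TPM + 1), where 38% of all tested genes were lower, the same list had 0 higher and 9 lower.

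Of 17 transcription factors and cofactors known to act on CYP2D genes in human or mouse, 0 were higher and 0 lower in the edgeR fit, with a median of −0.0093. At an unadjusted p under 0.05, 2 were higher and 2 lower, DESeq2 called 1 higher and 1 lower, and limma-voom called 0 of each. The smallest p was that of Foxa1, a liver pioneer factor, at 8.23 ± 0.637 CPM in resmetirom libraries and 11.8 ± 1.14 CPM in control libraries (SD, n = 4 each; log2 fold change −0.52, adjusted p 0.0546 in the edgeR fit). Gabpa, the DNA-binding subunit of GABP, averaged 44.3 CPM in resmetirom libraries and 44.6 CPM in control libraries (log2 fold change −0.0093, SE 0.12). Hnf4a averaged 556 CPM in resmetirom libraries and 420 CPM in control libraries (log2 fold change 0.41, SE 0.39, adjusted p 0.684 in the edgeR fit), and Nr0b2, which encodes the small heterodimer partner, averaged 11.8 CPM in resmetirom libraries and 20.2 CPM in control libraries (log2 fold change −0.78, SE 0.61). These transcript levels say nothing of the activity of the proteins. On log2(TPM + 1), 6 of the 17 were lower and 0 higher, beside 38% of all tested genes lower on that scale.

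Genes of the growth hormone and STAT5 pathway, which sets the sex pattern of liver P450 genes, were read together with other sex-dependent regulators. The joint list held 15 genes, of which 14 were tested. The edgeR fit called 2 higher and 0 lower, with a median of −0.084. Prlr, the prolactin receptor, rose to 96.2 ± 11.1 CPM in resmetirom libraries, against 41.9 ± 9.09 CPM in control libraries (SD, n = 4 each; log2 fold change 1.20, adjusted p 0.000793). Trim24, a transcriptional cofactor, rose to 42.9 ± 3.73 CPM in resmetirom libraries, against 27.1 ± 7.50 CPM in control libraries (SD, n = 4 each; log2 fold change 0.66, adjusted p 0.0409 in the edgeR fit). Only 1 of the list was called higher when any of 6 libraries was left out (control 1, 3 or 4, resmetirom 1, 2 or 4), and 1 was called lower without resmetirom library 1 or 2. Stat5b, the main growth hormone effector on sex-dependent genes, averaged 34.5 CPM in resmetirom libraries and 34.1 CPM in control libraries (log2 fold change 0.020, SE 0.13). At an unadjusted p under 0.05, 1 gene of the list was lower, and DESeq2 and limma-voom each called 1 lower. In the fit of log2(TPM + 1), 1 was higher and 3 were lower, beside 38% of all tested genes lower.

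Cyp2d9 itself was kept out of the list of genes known to be higher in male mouse liver, of which 21 of 23 were tested. In the edgeR fit 10 were lower and 1 was higher in resmetirom libraries, with a median log2 fold change of −1.61. Mup20, a major urinary protein, stood at 998 ± 362 CPM in resmetirom libraries and 15533 ± 1393 CPM in control libraries (SD, n = 4 each; log2 fold change −3.96, adjusted p 2.67e-05). Cyp4a12a stood at 2.90 ± 1.59 CPM in resmetirom libraries and 302 ± 80.5 CPM in control libraries (log2 fold change −6.72, adjusted p 0.000343 in the edgeR fit), and Mup21 (−6.43) and Cyp4a12b (−6.45) also fell. The gene called higher was Mup1, which averaged 607 CPM in resmetirom libraries and 50.1 CPM in control libraries (adjusted p 0.0160), and the list had no riser when control library 2 or control library 4 was left out. It had 2 risers without control library 1, resmetirom library 1 or resmetirom library 4. Without adjustment, 3 of the 21 were higher and 13 lower at a p under 0.05, and DESeq2 and limma-voom each called 3 higher and 12 lower. Mup7 (log2 fold change 3.09, adjusted p 0.0768) and Cyp7b1 (0.73, adjusted p 0.0550) were above 0 without passing the edgeR threshold. The list had 2 higher and 14 lower on log2(TPM + 1), where 38% of all tested genes were lower.

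Of the list of genes known to be higher in female mouse liver, 17 of 22 were tested, 11 were higher and 0 lower in the edgeR fit, and the median was 4.11 on the log2 scale. Cyp2a4, a steroid hydroxylase of female liver, stood at 954 ± 74.7 CPM in resmetirom libraries and 95.6 ± 32.9 CPM in control libraries (SD, n = 4 each; log2 fold change 3.32, adjusted p 0.000103). Slc22a27, an organic anion transporter, stood at 54.0 ± 17.7 CPM in resmetirom libraries and 3.49 ± 0.526 CPM in control libraries (log2 fold change 3.95, adjusted p 9.14e-06 in the edgeR fit). Sult2a1 and Sult2a2, sulfotransferases for steroids and bile acids, rose as well, to means of 872 and 403 CPM in resmetirom libraries, against 0.0341 and 0.0690 CPM in control libraries, where they had few or no counts. Cyp2b9 (log2 fold change −0.62, adjusted p 0.775) and Acot3 (−0.49, adjusted p 0.786) were below 0 without passing the edgeR threshold. Without adjustment, at a p under 0.05, 14 of the 17 were higher and 0 lower. DESeq2 called 13 higher and limma-voom 9, and both called 0 lower. The log2(TPM + 1) scale gave 13 higher and 1 lower. The earlier analysis of these libraries had already shown the sex-biased genes to move, so both lists give context and no independent support.

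Among 36 tested genes of the other xenobiotic-metabolising P450 families, 11 were higher and 5 lower, with a median log2 fold change of 0.029. Cyp2a22 stood at 142 ± 10.9 CPM in resmetirom libraries and 27.6 ± 1.47 CPM in control libraries (SD, n = 4 each; log2 fold change 2.37, adjusted p 5.67e-08 in the edgeR fit). Cyp2c68 stood at 468 ± 82.0 CPM in resmetirom libraries and 205 ± 19.5 CPM in control libraries (log2 fold change 1.19, adjusted p 0.000203). Cyp3a44 was read at 35.4 CPM in resmetirom libraries and had no count in control libraries. The 5 lower genes were Cyp1a2 (log2 fold change −1.94), Cyp3a11 (−1.65), Cyp2u1 (−2.46), Cyp2c29 (−1.26) and Cyp2c55 (−1.87). Of these, Cyp3a11 averaged 2860 CPM in resmetirom libraries and 9002 CPM in control libraries (adjusted p 0.000398 in the edgeR fit). Cyp2a4 and Cyp3a44 also stand in the female-biased list. On log2(TPM + 1) the list had 10 higher and 14 lower, with a median of −0.45, beside 38% of all tested genes lower.

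Zonal markers were counted because many P450 enzymes are made mainly by hepatocytes around the central vein. Of 12 pericentral markers, 3 were higher and 1 lower in the edgeR fit, with a median of 0.016. Cyp1a2, a pericentral P450, fell to 23.8 ± 6.75 CPM in resmetirom libraries, against 91.0 ± 7.37 CPM in control libraries (SD, n = 4 each; log2 fold change −1.94, adjusted p 0.000246), while Gulo (0.79), Lect2 (0.74) and Lgr5 (1.15) rose. Of 11 periportal markers, 2 were higher and 2 lower, with a median of 0.071. Cps1 (0.76) and Arg1 (0.71), of the urea cycle, rose, and Aldh1b1 (−1.34) and Hsd17b13 (−0.53) fell. Leaving out 1 library gave 2 to 3 pericentral risers, 1 to 3 periportal risers and 1 to 2 periportal fallers. On log2(TPM + 1), 0 pericentral markers were higher and 6 lower (median −0.36), and 0 periportal markers were higher and 5 lower (median −0.42). Of all tested genes, 38% were lower on that scale.

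The summed hepatocyte markers, 9 of 10 in the table, ran from 97235 to 105116 CPM in resmetirom libraries and from 76821 to 86385 CPM in control libraries, so the libraries carried the labelled tissue's markers. Kupffer cell and macrophage markers (6 of 6 detected) ran from 305 to 770 CPM in resmetirom libraries and from 479 to 733 CPM in control libraries, and those of stellate cells and fibroblasts (6 of 6) from 359 to 619 CPM in resmetirom libraries and from 345 to 555 CPM in control libraries. Erythroid markers (4 of 4) ran from 131 to 332 CPM in resmetirom libraries and from 42.8 to 191 CPM in control libraries. Cholangiocyte markers (5 of 5) ran from 40.5 to 71.5 CPM in resmetirom libraries and from 28.2 to 53.0 CPM in control libraries, endothelial markers (5 of 5) from 149 to 225 CPM in resmetirom libraries and from 174 to 246 CPM in control libraries, and pancreatic acinar markers (3 of 5) from 5.58 to 6.43 CPM in resmetirom libraries and from 3.30 to 5.09 CPM in control libraries. Lymphocyte markers (5 of 5) ran from 3.13 to 9.58 CPM in resmetirom libraries and from 1.68 to 4.09 CPM in control libraries. Adipocyte markers (2 of 4 detected, Adipoq and Retn at 0 in all libraries) summed to 0 CPM in every resmetirom library and to 0.272 to 1.68 CPM in control libraries, so the groups did not overlap. None of them passed the filter on low counts, and without that filter edgeR called 1 lower. Kidney tubule markers (1 of 4 detected, with Kap, Slc12a1 and Umod at 0) summed to 0 CPM in every resmetirom library and to 0 to 0.0494 CPM in control libraries. The hepatocyte and pancreatic acinar sums also did not overlap between the groups. In the edgeR fit with the filter, 3 of 9 hepatocyte markers were higher and 0 lower, with a median log2 fold change of 0.35. Of 6 stellate cell and fibroblast markers, 1 was lower and 0 were higher in that fit, and no other marker set had a call. The part of these markers in the Cyp2d9 difference was not tested.

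The genes whose profile over the 8 libraries lay closest to Cyp2d9, by root mean square distance of centred log2(CPM + 1) among 6996 genes with a mean of at least 10 CPM, were Adam11 (0.289), Cyp2c23 (0.308) and Abcc3 (0.355). Adam11, which encodes a membrane protein of the disintegrin family, stood at means of 2.85 CPM in resmetirom libraries and 29.2 CPM in control libraries, and Cyp2c23, another P450, at 16.9 ± 6.03 CPM in resmetirom libraries and 100.3 ± 14.7 CPM in control libraries (SD, n = 4 each). Abcc3, an efflux transporter for organic anions, stood at 30.9 ± 9.83 CPM in resmetirom libraries and 215 ± 15.7 CPM in control libraries (SD, n = 4 each). Closest to the family sum were Sfxn5 (0.0736), Abhd14b (0.0858) and Camk2n1 (0.0898), with log2 fold changes of −0.66, −0.59 and −0.71. Such distances describe likeness over these libraries only.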

How the data were processed

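Whole-number counts per gene and library, and TPM values, were taken from 1 table of 22013 genes that the authors deposited, per the file headers. 5994 genes had no counts. Poly(A) RNA was captured with oligo(dT) beads, per the labels' protocols. Tools listed in the submitters' processing notes, without role or order, include HISAT2 2.1.0, Bowtie2 2.2.8, RSEM, StringTie 1.3.1, DESeq2 and edgeR beside fastp 0.18.0. The notes also name the build mm10. No source used here gives the handling of strand or of reads shared between paralogs. The authors' table also holds a p-value, its adjusted form and a log2 fold change, per the file headers. Every sample column was matched by name, with 0 unmatched.

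Counts summed to 16787561 to 18682190 per resmetirom library and 17436759 to 19887539 per control library. The gene-level test was that of edgeR 4.0.16, run in R 4.3.3 (filterByExpr, TMM, robust quasi-likelihood fit), and p-values were adjusted by Benjamini-Hochberg over 12207 genes with a threshold of 0.05. TPM values were tested with limma 3.58.1 on log2(TPM + 1), a scale that understates changes of low genes, and with a pseudocount of 0.1. Single shares were compared with exact permutation tests over 70 assignments (scipy 1.17.1). For the family sum, the member rows were replaced by 1 row of summed counts. Alternatives were other scalings, DESeq2 1.42.0, limma-voom, other filters, a replicate block and leaving out each library. The scripts were tested on simulated counts. No 2 libraries of a group agreed within counting error (chi-square per degree of freedom at least 13.2).

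Positions and transcripts came from GENCODE M21 (GRCm38, the assembly mm10 names), which held 99.2% of the gene identifiers, and promoters from RefSeq (GRCm38.p6). The members and lists were chosen with earlier results of these data known. All 9 members are named, with up to 4 called genes of each list by smallest p, or else the 1 with the smallest p, and the 3 genes nearest in profile. Gabpa, Hnf4a, Nr0b2, Stat5b, Por, Mup1, Mup7, Cyp7b1, Cyp2b9, Acot3, Cyp3a11, Cyp2u1, Cyp2c29 and Cyp2c55 were named after their values were seen.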

Additional observations from a re-analysis of the deposited data

Results flagged for a closer look

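Of 30 groups of 4 values checked (each tested member, the sums and the shares, in each group), 2 had a library set apart from its group by a gap over 0.829 of the range (Dixon's 95% critical value), and chance alone gives about 1 in 20. Both concern control library 4. The sum of the Cyp2d members without Cyp2d9 was 1066 CPM in control library 4 and 1226 to 1258 CPM in the other 3 control libraries (gap over range 0.835). The share of Cyp2d22 in the Cyp2d counts was 5.36% in control library 4 and 5.75 to 5.78% in the other 3 (gap over range 0.918). That library had the largest Cyp2d9 share of the control group, 44.5%. Without it, the sum of the 8 other members had a log2 fold change of −0.17 (edgeR adjusted p 0.428), against −0.12 with all libraries.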

How the results depend on the processing

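Over 20 other settings, Cyp2d9 was lower in resmetirom libraries in all, at log2 fold changes of −3.30 to −2.78 (adjusted p at most 2.85e-05), and so was the family sum, at −1.13 to −0.70. The count of members called lower was 4 with library sizes only, with log2(TPM + 1) and with log2(TPM + 0.1), and 1 otherwise. With these 3 scales the sum without Cyp2d9 also passed, at −0.42 (adjusted p 0.0262), −0.60 (0.0172) and −0.60 (0.0175). Cyp2d13 turned to −0.030, −0.19 and −0.21 and Cyp2d40 to −0.010, −0.18 and −0.18 (same order of scales), none called; the median of all genes moved by these scales to −0.31, −0.41 and −0.50. Leaving out each library gave 1 member lower and 0 higher each time, sums of −0.75 to −0.70 for the family and −0.17 to −0.094 without Cyp2d9, differences of −0.119 to −0.109 points in the family's share of counts and of −32.2 to −29.7 points in the Cyp2d9 share of the family, where 4 against 3 libraries cannot give a p below 0.0571.

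Across all tested genes, 317 higher and 243 lower (43.4% of calls lower) became 532 and 411 with DESeq2, 234 and 444 with library sizes without Mup genes (65.5% lower), 151 and 1961 with library sizes only (92.9%), 127 and 4635 with log2(TPM + 1) (97.3%), 128 and 4593 with log2(TPM + 0.1), 182 and 149 without control library 4, and 208 and 161 without resmetirom library 4. The labels do not say whether a replicate number pairs libraries. Same-numbered libraries' deviations correlated at −0.33, 0.18, −0.19 and −0.061, and so few values cannot decide it. With the replicate number as a block, the family sum was −0.72 (adjusted p 0.00431), and 240 genes were higher and 166 lower. The cause of these shifts was not tested. Read sharing among Cyp2d paralogs, the low counts of Cyp2d11, Cyp2d12 and Cyp2d34, and 4 libraries a group limit what can be seen.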
